A study of Mus musculus with 10 samples.

Results

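The genes described here are 10 imprinted genes that control growth of the embryo, *H19*, *Meg3*, *Dlk1*, *Peg3*, *Cdkn1c*, *Grb10*, *Mest*, *Plagl1*, *Ndn* and *Kcnq1ot1*, out of 32285 genes counted in single cells of the developing mouse lower jaw and incisor. They were chosen by name, with earlier results of these data known, and their levels are given by stage and by cell lineage. All embryos were wild type NMRI mice, and no group carried an allele or a treatment. The E11.5 cells came from whole mandibles and those of both later stages from buds of the lower incisor, so stage and dissected tissue cannot be told apart. From E11.5 to E16.5 the labels list 4, 4 and 2 libraries, but each stage was deposited as 1 matrix in which no barcode names its library. The study's methods give another number of mandibles at E11.5 than the labels list libraries, and how many embryos that matrix holds was not tested. Each stage was therefore 1 sample without replicates, no test was made, and all differences below are descriptions of these 3 samples.

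In imprinted genes, the copy inherited from the mother and the copy inherited from the father are marked differently in the germ line, and the cell uses mainly one of them. *H19*, *Meg3*, *Cdkn1c* and *Grb10* are used mainly from the maternal copy in most embryonic tissues, and *Dlk1*, *Peg3*, *Mest*, *Plagl1*, *Ndn* and *Kcnq1ot1* from the paternal copy. As a broad rule, paternally expressed genes favor growth of the embryo and maternally expressed genes restrain it, and many are turned down as tissues mature. The counts here do not tell the parental copies apart.

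The genes lie in a few shared domains, with coordinates on GRCm38. *H19*, a long noncoding RNA, is on chromosome 7 (142575529 to 142578143, minus strand), with the gene of the growth factor *Igf2* 72.6 kb away. *Cdkn1c*, which encodes an inhibitor of cyclin-dependent kinases, is on the same chromosome (143458339 to 143461050, minus strand). *Kcnq1ot1*, the noncoding RNA of that domain (143203458 to 143296549, minus strand), starts 162 kb from *Cdkn1c*. *Dlk1*, which encodes a transmembrane protein related to Notch ligands (chromosome 12, 109452823 to 109463336, plus strand), is 77.7 kb from *Meg3*, a noncoding RNA (109541001 to 109571726, plus strand). *Peg3*, a zinc finger gene (6703892 to 6730431, minus strand), and *Ndn*, which encodes the MAGE protein necdin (62346569 to 62350262, plus strand), are elsewhere on chromosome 7. *Mest*, a member of the hydrolase fold family, is on chromosome 6 (30723547 to 30748465, plus strand), *Plagl1*, a zinc finger transcription factor, on chromosome 10 (13060504 to 13131694, plus strand), and *Grb10*, an adaptor that dampens insulin and insulin-like growth factor receptors, on chromosome 11 (11930508 to 12038683, minus strand).

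RefSeq promoter windows (GRCm38.p6, 250 bases before to 50 after an annotated start) were matched for 8 of the 10 genes, in 12 windows. Those below belong to the neighbors *Meg3* and *Dlk1*, to *Peg3*, which followed *Dlk1* across cell groups, and to *Mest* and *Plagl1*, which were both highest in endothelium. Capitals mark the cAMP response element TGACGTCA, the GC box GGGCGG, the TATA box TATAAA and the CCAAT box CCAAT, each searched on both strands, and overlapping matches run together. The counts come from the 3' ends of transcripts, so they do not show which start was used.
Meg3 (chr12:109540746-109541045, plus strand): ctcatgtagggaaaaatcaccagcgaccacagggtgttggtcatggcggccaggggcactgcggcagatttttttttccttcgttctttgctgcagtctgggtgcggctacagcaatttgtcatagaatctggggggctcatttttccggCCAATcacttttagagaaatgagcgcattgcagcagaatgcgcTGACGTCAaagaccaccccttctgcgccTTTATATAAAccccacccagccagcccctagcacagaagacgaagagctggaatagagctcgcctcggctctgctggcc
Dlk1 (chr12:109452573-109452872, plus strand): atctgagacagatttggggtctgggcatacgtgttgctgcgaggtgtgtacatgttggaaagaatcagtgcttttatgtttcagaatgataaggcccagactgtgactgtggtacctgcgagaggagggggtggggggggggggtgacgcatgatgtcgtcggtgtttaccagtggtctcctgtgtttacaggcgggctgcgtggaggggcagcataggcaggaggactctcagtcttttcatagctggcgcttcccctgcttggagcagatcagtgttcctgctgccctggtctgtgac
Peg3 (chr7:6730370-6730669, minus strand): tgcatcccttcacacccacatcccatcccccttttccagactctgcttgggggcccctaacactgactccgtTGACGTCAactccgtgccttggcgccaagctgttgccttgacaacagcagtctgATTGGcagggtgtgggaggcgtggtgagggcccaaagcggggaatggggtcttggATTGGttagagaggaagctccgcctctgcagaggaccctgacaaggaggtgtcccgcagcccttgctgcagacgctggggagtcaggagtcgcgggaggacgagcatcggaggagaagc
Mest (chr6:30737800-30738099, plus strand): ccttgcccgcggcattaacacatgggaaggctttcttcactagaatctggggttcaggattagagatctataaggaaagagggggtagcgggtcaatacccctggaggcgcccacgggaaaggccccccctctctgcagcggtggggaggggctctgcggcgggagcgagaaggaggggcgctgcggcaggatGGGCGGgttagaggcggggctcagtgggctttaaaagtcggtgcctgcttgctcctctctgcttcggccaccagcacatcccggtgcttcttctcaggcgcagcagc
Plagl1 (chr10:13090582-13090881, plus strand): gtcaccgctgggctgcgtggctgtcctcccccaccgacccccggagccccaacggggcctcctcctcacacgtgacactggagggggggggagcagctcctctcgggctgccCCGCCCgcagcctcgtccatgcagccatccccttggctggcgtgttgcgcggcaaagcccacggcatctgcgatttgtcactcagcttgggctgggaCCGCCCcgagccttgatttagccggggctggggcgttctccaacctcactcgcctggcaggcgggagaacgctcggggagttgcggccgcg
The cAMP response element was found in the *Meg3* and *Peg3* windows printed here, and in 1.79% of all 32851 promoter windows. The GC box was in 35.7% of them, the TATA box in 13.6% and the CCAAT box in 37.4%. The *Dlk1* window held none of these letters. *Meg3* and *Mest* have further windows that are not printed, and the further *Meg3* window (chr12:109545148-109545447) held none of these letters either. A match describes the sequence and is not evidence of binding.

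Cells in which 700 or more genes were detected, and of whose counts no more than 20% were mitochondrial, were used (6573, 6091 and 4511 from E11.5 to E16.5). Their median depths were 5664, 3471 and 6260 UMIs (unique molecular identifiers, tags that mark each captured RNA molecule). Each cell was called for a lineage where the UMIs of its marker list reached 3 from at least 2 genes and 3 times those of any other list. This gave 5564, 4437 and 2510 mesenchymal cells, 9, 712 and 1459 epithelial cells, 60, 142 and 112 endothelial cells, 53, 121 and 26 immune cells and 106, 4 and 2 erythroid cells. Groups under 50 cells were not compared, so the epithelium has no E11.5 value and the immune and erythroid cells have none at E16.5. All 9 mesenchymal markers were detected in the mesenchyme of each stage, where they summed to 2304, 3472 and 3991 CPM (counts of a gene per 1000000 UMIs of the group), against 47.2 to 145 CPM in the other groups. The call used these same markers, so this contrast follows from it and is not a separate check of the lineages. The genes of the Y chromosome *Ddx3y*, *Eif2s3y*, *Kdm5d* and *Uty* had 0, 1197 and 1955 UMIs from E11.5 to E16.5, so the sex make-up of the cells differed with stage as well. In all ratios below, intervals are exact, at the 95% level, and cover counting error only.

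In the mesenchyme, the members together made up 5608 CPM at E11.5 (interval 5586 to 5631). This sum was 4663 CPM at E14.5 (4631 to 4695), and E16.5 had 2766 (2742 to 2790). In the epithelium of E14.5 they summed to 2108 CPM and in that of E16.5 to 1200, and in the endothelium to 4569, 4081 and 3377 CPM from E11.5 to E16.5. The immune cells were at 698 and 442 CPM, and the erythroid cells of E11.5 at 834. The mesenchyme had the highest sum at E11.5 and E14.5, and the endothelium at E16.5. With each cell thinned to 2000 UMIs, a mesenchymal cell held a UMI of 5.15, 4.36 and 3.23 members on average from E11.5 to E16.5, and cells with no member were 0.623%, 2.32% and 4.91%. An epithelial cell held 2.41 members at E14.5, and 1.53 by E16.5. An immune cell held 0.981 members at E11.5, and 0.658 by E14.5. Both the sum and the number per cell were lower at each later stage in these lineages, apart from the number per endothelial cell, which was 3.94, 4.07 and 3.15.

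**Figure D1:**
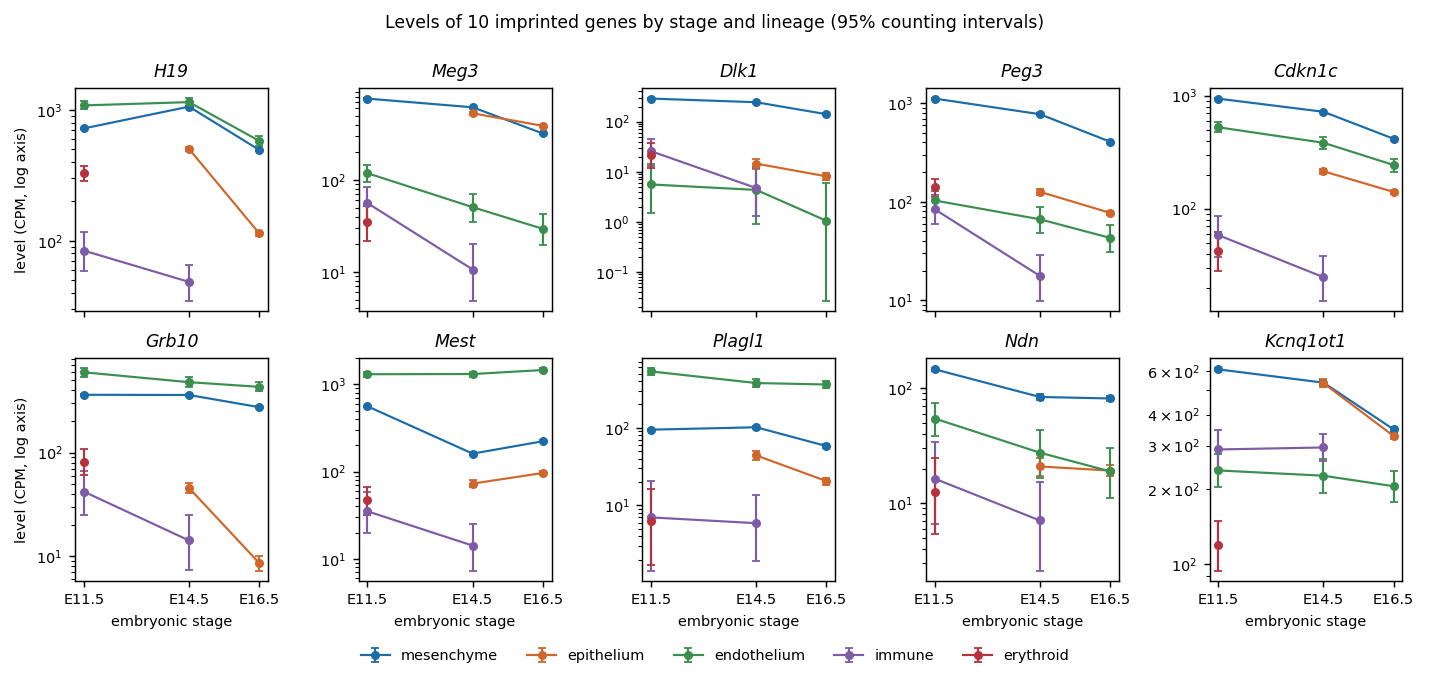
Levels of the 10 genes (CPM, log axis, a scale of its own in each panel) against embryonic stage, with a line for each lineage and bars for 95% counting intervals. *Mest* and *Plagl1* lie highest in endothelium at each stage, *Dlk1* is at 25.7 CPM or less in each lineage but the mesenchyme, and *Kcnq1ot1* has the narrowest range over lineages.

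*H19*, whose RNA also carries a microRNA and which is a known brake on growth, was at 724 CPM in the E11.5 mesenchyme (interval 716 to 732). It rose to 1064 CPM in that of E14.5 (1048 to 1079), 1.47-fold above E11.5, and was at 496 CPM in that of E16.5 (486 to 506), 2.14-fold below E14.5. In the endothelium it was at 1087, 1152 and 582 CPM, above the mesenchyme at each stage, by 1.08-fold at E14.5. The epithelium held 504 CPM of it at E14.5 but 114 by E16.5, which is 4.42-fold lower. Erythroid cells of E11.5 held 327 CPM of *H19* (284 to 375), which was 45.2% of the mesenchymal level. The collagens *Col1a1*, *Col1a2* and *Col3a1* were at 14.2% (3.88 to 36.5), 4.77% and 3.05% of their mesenchymal levels there. Of these, *Col1a2* and *Col3a1* are mesenchymal markers, so the lineage call limits them in erythroid cells, and *Col1a1* had 4 UMIs there. The other members ranged from 4.51% for *Meg3* to 22.6% for *Grb10* in these cells. Over all 7972 genes tested, the median log2 ratio of mesenchyme over erythroid cells was 1.56. Of these genes 69.8% were past 2-fold higher in mesenchyme, so a lower erythroid level was common. At 2000 UMIs per cell, a *H19* UMI was in 72.8% of mesenchymal cells at E14.5, 53.3% of epithelial cells and 9.65% of immune cells. Before thinning the median depths of these groups were 3341, 5096 and 6527 UMIs. The source of the *H19* UMIs in immune cells was not tested. In the mesenchyme the neighbor *Igf2* was also highest at E14.5, with 258, 470 and 306 CPM from E11.5 to E16.5.

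From E11.5 to E16.5, *Meg3* was at 767, 617 and 321 CPM in the mesenchyme. Its epithelial level was 531 CPM at E14.5 (interval 512 to 550), close to the mesenchyme, and 388 CPM by E16.5 (379 to 397), 1.21-fold above the mesenchyme. In the endothelium it was at 118, 50.6 and 29.4 CPM. *Dlk1*, its neighbor, was at 289, 244 and 141 CPM in the mesenchyme but at 14.51 and 8.10 CPM in the epithelium. The mesenchyme was above the epithelium 16.8-fold at E14.5 (13.6 to 21.1), and E16.5 had a like ratio of 17.4 (14.6 to 20.8). On the log2 scale these ratios, 4.07 and 4.12, became 3.37 and 3.06 with 10 CPM added to both levels. In the endothelium *Dlk1* had 4, 3 and 1 UMIs in all, and the ratio of mesenchyme over endothelium was 51.8 at E11.5 (20.2 to 190) and 56.3 at E14.5 (19.2 to 273), with the lowest counts making these intervals wide. As log2 ratios these were 5.70 and 5.81, and they became 2.72 and 3.43 where each cell took the lineage of its cluster. The neighbors thus took like courses over stages in the mesenchyme and had unlike levels in the epithelium. The immune cells were at 25.7 CPM of *Dlk1* at E11.5 and 4.72 at E14.5, and the intervals of epithelium and immune cells overlapped at E14.5 (11.6 to 17.9 against 1.29 to 12.1).

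*Peg3* fell in the mesenchyme from 1117 CPM at E11.5 to 775 and then 408 CPM. It was at 126 and 77.3 CPM in the epithelium of E14.5 and E16.5, and at 103, 66.5 and 43.05 CPM in the endothelium. The mesenchyme was thus above the epithelium 6.13- and 5.28-fold at these stages. *Ndn* was at 145 CPM in the mesenchyme at E11.5, and at 83.7 and 81.2 CPM later, values whose ratio does not differ from 1 beyond counting error (0.971, 0.903 to 1.04). It was at 20.8 and 19.2 CPM in the epithelium and at 54.3, 27.5 and 18.9 CPM in the endothelium.

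*Cdkn1c* was at 941 CPM in the E11.5 mesenchyme (interval 932 to 950), then at 720 CPM (708 to 733) and, at E16.5, at 416 CPM (406 to 425). The endothelium held 525, 383 and 244 CPM, and the epithelium 214 and 141 CPM. Each of these 3 lineages was therefore lower at each later stage. At 2000 UMIs per cell, *Cdkn1c* was seen in 71.4%, 49.8% and 31.0% of mesenchymal cells from E11.5 to E16.5, against 5.66% and 7.89% of immune cells of the first pair of stages, whose median depths were 7540 and 6527 UMIs before thinning and those of the mesenchyme 6053, 3341 and 5957.

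*Grb10* was at 363, 361 and 275 CPM in the mesenchyme, and higher in the endothelium, at 598, 480 and 433 CPM. Its epithelial level went from 45.6 CPM at E14.5 (interval 40.3 to 51.4) to 8.57 CPM (7.24 to 10.1), which is 5.32-fold lower. The ratio of mesenchyme over epithelium went from 7.91 to 32.1 (27.2 to 38.1). On the log2 scale the E16.5 ratio of 5.004 became 3.99 with the lineage of a cell's cluster and 3.94 with 10 CPM added to both levels. *Mest* was highest in the endothelium, where it was at 1307, 1314 and 1459 CPM, with a UMI in 92%, 91.7% and 84.8% of cells at 2000 UMIs, against 7.55% and 3.51% of immune cells at E11.5 and E14.5. Endothelial cells had median depths of 7109, 3205 and 5826 UMIs before thinning. In the mesenchyme *Mest* was at 560, 161 and 223 CPM, and in the epithelium at 72.7 and 96.3 CPM. *Plagl1*, a known regulator of other imprinted genes, was also highest in the endothelium, at 532, 377 and 361 CPM, against 94.5, 102 and 58.2 CPM in the mesenchyme and 44.1 and 20.6 CPM in the epithelium. The endothelium was above the mesenchyme of the same stage 5.63-, 3.72- and 6.21-fold for *Plagl1* and 2.33-, 8.18- and 6.56-fold for *Mest*.

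*Kcnq1ot1* was at 608, 537 and 348 CPM in the mesenchyme and at 535 and 328 CPM in the epithelium, with a ratio of mesenchyme over epithelium of 1.005 at E14.5 (0.965 to 1.05). The endothelium held 238, 227 and 206 CPM. The immune cells held 289 and 295 CPM at E11.5 and E14.5, which is 47.6% and 54.9% of the mesenchymal level. For the other members the immune cells held 6.20 to 11.6% of the mesenchymal level at E11.5 and 1.72 to 8.81% at E14.5, and for the collagens *Col1a1*, *Col1a2* and *Col3a1* 6.33 to 10.6% and 1.91 to 2.33%. The immune level of *Kcnq1ot1* thus stood apart from those of the other members. Over all genes tested, the median log2 ratio of mesenchyme over immune cells was 0.31 at E11.5 and 0.24 at E14.5. Relative to mesenchyme, *Kcnq1ot1* was therefore lower in immune cells than the median gene. *Col1a2* and *Col3a1* are mesenchymal markers, so the lineage call itself limits their levels in immune cells. *Col1a1*, which is not a marker, had 2 immune UMIs at E11.5 and 11 at E14.5. *Malat1*, a noncoding RNA kept in the nucleus, was at 14206, 34205 and 32026 CPM in the mesenchyme. Its part in the levels of *Kcnq1ot1* was not tested.

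For the change from E11.5 to E14.5 in the mesenchyme, a gene was counted as past 2-fold where the ratio of its levels was at least 2 or at most 0.5. Of the 10 members, *Mest* was past 2-fold, 3.49-fold lower at E14.5 (log2 ratio -1.80), where 15.1% of 8284 genes were past 2-fold in either direction and 7.74% were lower. *Ndn* and *Peg3* followed, with log2 ratios of -0.80 and -0.53, and *H19* was the highest, at 0.55. The median log2 ratio was -0.28 over the members and -0.22 over all genes tested, which lie close together. *Grb10* and *Kcnq1ot1*, at -0.01 and -0.18, lay above that median, and both were above 0 with median-of-ratios size factors (0.18 and 0.01), as was *Cdkn1c*, at -0.39, with the mean of the levels of single cells (0.09). Of 30 other imprinted genes, 22 were tested, 0 were past 2-fold higher and 7 were past 2-fold lower. The largest changes among them were those of *Asb4*, from 122 to 1.98 CPM, *Magel2*, from 15.6 to 0.964, *Nnat*, from 620 to 62.8, and *Peg10*, from 101 to 12.1.

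From E14.5 to E16.5 in the mesenchyme, 9 of the 10 members had a ratio under 1, and *H19* was past 2-fold (log2 ratio -1.10), where 5.97% of 8272 genes were past 2-fold in either direction and 1.28% lower. The 9 include *Ndn*, whose ratio did not differ from 1 beyond counting error. The share of all genes with a ratio under 1 was not computed. The median log2 ratio of the members was -0.79, against 0.12 over all genes, of which the lowest 5% were at -0.48 or less. *Meg3* and *Peg3* were 1.93- and 1.90-fold lower, and *Dlk1*, *Cdkn1c* and *Plagl1* 1.73-, 1.73- and 1.74-fold lower. *Grb10* was 1.31-fold lower, and *Mest* was the member that was higher, 1.39-fold (interval 1.32 to 1.45). All members but *H19* fell short of 2-fold. The count of members past 2-fold was 3 with median-of-ratios size factors and 4 with the mean of the levels of single cells. Of 19 other imprinted genes tested, 4 were past 2-fold and all of these were lower: *Nnat* (62.8 to 8.82 CPM), *Mirg* (31.9 to 7.63), *Usp29* (62.8 to 23.7) and *Zim1* (28.7 to 11.8). The median log2 ratio over all 19 was -0.15.

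**Figure D2:**
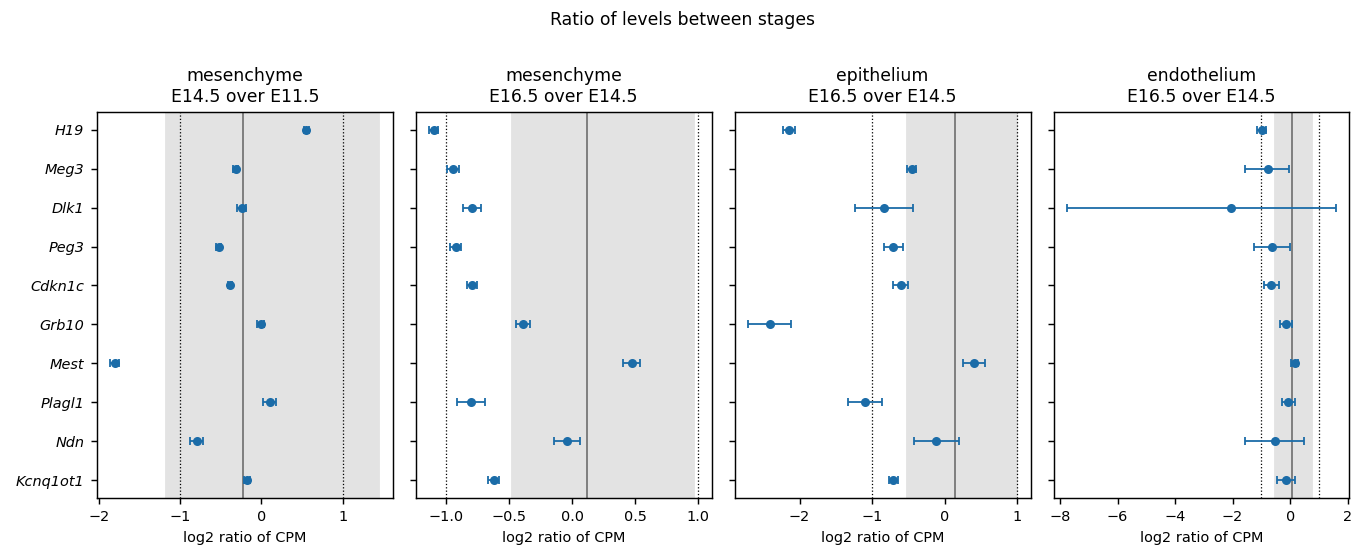
Log2 ratio of CPM between stages for each member (points, with 95% counting intervals), in the mesenchyme for both steps and in epithelium and endothelium from E14.5 to E16.5. Shading spans the 5th to 95th percentile of all genes tested, the solid line is their median and dotted lines mark 2-fold. In the mesenchyme from E14.5 to E16.5, *H19*, *Meg3*, *Peg3*, *Cdkn1c*, *Dlk1*, *Plagl1* and *Kcnq1ot1* lie left of the shading, while from E11.5 to E14.5 *Mest* alone does.

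In the epithelium from E14.5 to E16.5, *H19*, *Grb10* and *Plagl1* were past 2-fold and lower, 3 of 10 members, where 6.27% of 8298 genes were past 2-fold and 1.31% lower. The log2 ratios were -2.41 for *Grb10*, -2.14 for *H19* and -1.10 for *Plagl1*. That of *Grb10* was -1.65 with the lineage of a cell's cluster and -1.58 with 10 CPM added to both levels, and their order turned, with *H19* at -2.002 and -2.05. That of *Plagl1* was -1.72 at 2000 UMIs per cell. With 10 CPM added to both levels, 2 members were past 2-fold and *Plagl1* was not among them. With the mean of the levels of single cells the count was 4. The median log2 ratio was -0.71 over the members and 0.14 over all genes, and *Mest* was again higher (0.40). Of 14 other imprinted genes tested, *Nap1l5* was past 2-fold and higher, from 2.05 to 17.9 CPM, and *Mirg*, *Slc38a4* and *Igf2* were past 2-fold and lower.

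In the endothelium, 1 of 9 members that passed the filter on counts was past 2-fold from E11.5 to E14.5, *Meg3* at 2.34-fold lower, where 7.51% of 3834 genes were past 2-fold and 4.83% lower. From E14.5 to E16.5, 0 of 8 were, where 2.34% of 4193 genes were, and *H19* was 1.98-fold lower (log2 ratio -0.99, from 1152 to 582 CPM). *Mest* had ratios between stages of 1.01 and 1.11 in this lineage. *H19* was therefore lower at E16.5 than at E14.5 in all 3 lineages, and *Mest* was lower at E14.5 than at E11.5 in the mesenchyme but not in the endothelium; neither difference between lineages was tested.

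Between lineages of a stage, 8 of the 10 members were past 2-fold higher in mesenchyme than in epithelium at E14.5, where 18.1% of 8330 genes were past 2-fold and 9.23% higher. By E16.5 the count was again 8, where 18.1% of 8884 genes were past 2-fold and 9.87% higher. The exceptions were *Meg3* and *Kcnq1ot1* at both stages. The median log2 ratio of the members was 1.48 at E14.5 and 1.82 at E16.5, against -0.03 and -0.08 over all genes. Of the other imprinted genes, 7 of 17 tested were higher and 1 lower at E14.5, and 6 of 19 higher and 3 lower at E16.5. *Zim1* (28.7 against 1.37 CPM) and *Igf2* (470 against 74.95 CPM) were among those higher at E14.5, and *Nnat* was higher in epithelium at E16.5 (119 against 8.82 CPM). Of mesenchyme over endothelium, 5, 5 and 4 members were higher and 2, 2 and 2 lower from E11.5 to E16.5, where 30.5%, 29.6% and 30.9% of all genes were past 2-fold, 16%, 16.4% and 18.1% higher and 14.4%, 13.3% and 12.8% lower. *Meg3*, *Dlk1*, *Peg3* and *Ndn* were higher and *Mest* and *Plagl1* lower at each stage, and *Kcnq1ot1* was higher at E11.5 (2.55-fold) and E14.5 (2.37-fold) and 1.69-fold higher at E16.5. The other imprinted genes included *Asb4* and *Peg10*, at 340 and 156 CPM in the endothelium of E14.5 against 1.98 and 12.1 CPM in the mesenchyme. Over immune cells, all 10 members were past 2-fold higher in mesenchyme at E11.5, where 41% of genes were past 2-fold and 26.1% higher, and 9 at E14.5, where 40.3% were past 2-fold and 26.8% higher. Over erythroid cells all 10 were, where 74% of genes were past 2-fold and 69.8% higher, so that count is close to its background.

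**Figure D3:**
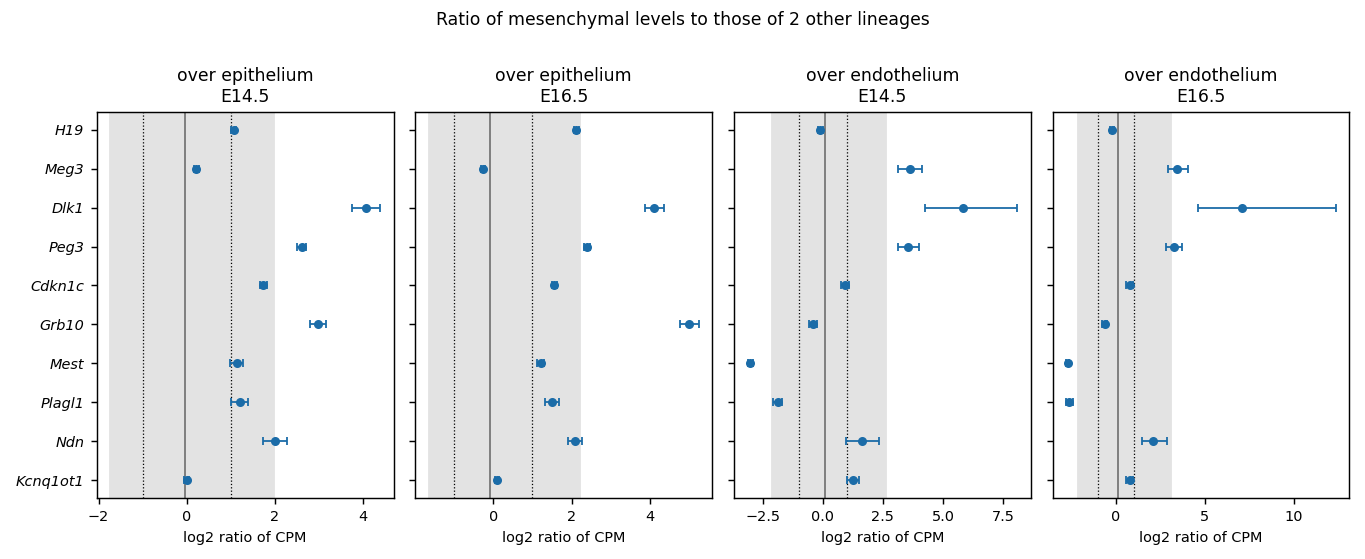
Log2 ratio of mesenchymal CPM over that of epithelium and of endothelium at E14.5 and E16.5 (points, with 95% counting intervals; shading, solid line and dotted lines mark the 5th to 95th percentile of all genes, their median and 2-fold). *Meg3* and *Kcnq1ot1* lie between the 2-fold lines over epithelium, and *Mest* and *Plagl1* lie left of the 2-fold line over endothelium.

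Cells of each stage were also clustered without the members among the variable genes, and levels were taken over the mesenchymal cells of each cluster. Clusters are named by their leading genes other than members. At E11.5, 9 of the 10 members were highest in the cluster led by *Cited1*, *Foxd2os* and *Foxf1* (1141 cells). The share of all genes highest in that cluster was not computed. *Plagl1* was at 347 CPM there and at 6.18 CPM in the cluster led by *Shox2* and *Osr2*, 56.0-fold lower (interval 40.0 to 81.1). *Peg3* was at 2476 and 513 CPM in these clusters, *Meg3* at 1658 and 374, *Dlk1* at 563 and 92.0, and *Ndn* at 340 and 85.1. *Cdkn1c*, at 1585 CPM in the *Cited1* cluster, was at 1009 in the *Shox2* cluster. Of the 10 members, 8 were past 2-fold between the highest and the lowest of 6 clusters, where 24.7% of 8679 genes were. The exception to the *Cited1* cluster was *Kcnq1ot1*, which was at 1279 CPM in a cluster led by mitochondrial genes and 460 to 664 in the rest. That cluster had a median of 10.9% mitochondrial counts, a median depth of 1938 UMIs and 30444 CPM of *Malat1*, against 3.54 to 3.91%, 4403 to 8247 UMIs and 10054 to 16413 CPM in the others. Their part in the *Kcnq1ot1* level was not tested. Without that cluster *Kcnq1ot1* differed 1.44-fold between clusters and 7 members were past 2-fold. The share over all genes was not computed for the 5 clusters left.

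At E14.5 all 10 members were lowest in the cluster led by *Crym*, *Egr3* and *Tril* (1100 cells), and 9 were past 2-fold between the highest and the lowest of 5 clusters, where 41.7% of 8875 genes were. The share of all genes lowest in the *Crym* cluster was not computed. *Cdkn1c* was at 92.1 CPM there and at 3076 in the cluster led by *Osr1*, *Ebf2* and *Ogn* (517 cells), a ratio of 33.4 (interval 30.6 to 36.5). *Plagl1* was at 13.5 and 529 CPM in the same clusters and *Meg3* at 155 and 2377. *H19* was highest in the cluster led by *Ibsp*, *Sfrp4* and *Alpl*, at 2019 CPM, and *Dlk1* in the cluster led by *Sst*, *Col8a1* and *Fgf18*, at 756. *Peg3* was highest in that cluster as well (1457 CPM). The members thus did not share a single highest cluster. A list of 10 cell cycle genes summed to 445 CPM in the *Osr1* cluster, 371 in the *Ibsp* cluster, 639 in the *Sst* cluster, 3087 in the *Crym* cluster and 6117 in a cluster led by *Nusap1* and *Prc1*. The *Nusap1* cluster, with the highest sum, was at 556 CPM of *Cdkn1c* and 1162 of *H19*, above the *Crym* cluster. *Malat1* was at 18222 CPM in the *Crym* cluster and 58799 in the *Osr1* cluster. Median depth was 5339 UMIs in the *Crym* cluster and 2455 to 4332 in the other mesenchymal clusters. The part of the cell cycle, of *Malat1* and of depth in these differences was not tested.

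At E16.5, 9 members were lowest in the cluster led by *Smpd3*, *Plac8* and *Sgms2* (695 cells), and 7 were highest in the cluster led by *Sfrp4*, *Pdzrn4* and *Slc1a3* (430 cells). The shares of all genes lowest or highest in these clusters were not computed. *Cdkn1c* was at 92.98 and 1766 CPM in these clusters, a ratio of 18.99 (17.5 to 20.6), and *H19* at 222 and 1304 CPM. *Dlk1* went the other way, with 171 CPM in the *Smpd3* cluster, its highest value, and 97.8 in the cluster led by *Col8a1* and *Smoc2*. Between the highest and the lowest of 4 clusters, 8 members were past 2-fold, where 28.7% of 9086 genes were. The *Smpd3* cluster had a median depth of 9200 UMIs, 4592 CPM of the cell cycle genes and 20399 CPM of *Malat1*. The other mesenchymal clusters had 4927 to 5629 UMIs, 354 to 705 CPM and 30050 to 44242 CPM. The part of these traits in the low levels was not tested. In the epithelium of E16.5, the *Cldn10* cluster, whose leading genes include *Sox2*, had the highest *Meg3* (766 CPM) and *Mest* (323 CPM), against 288 to 385 and 48.6 to 65.9 CPM in the clusters led by *Vwde* and *Tenm2*. A further epithelial cluster of 85 cells, with a median of 0.0698% mitochondrial counts and 3061 CPM of *Malat1*, had 10.4 CPM of *Kcnq1ot1*, 20.7 of *Meg3* and 145 of *H19*, and 0 UMIs of *Dlk1* and *Grb10*. Between the highest and the lowest of 4 epithelial clusters 9 members were past 2-fold, where 47.9% of 9067 genes were. Without that cluster 8 were, a count for which no share over all genes was computed. Among these, *Dlk1* was at 13.8 and 6.30 CPM in its highest and lowest cluster, and *Grb10* at 12.2 and 3.16 CPM.

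**Figure D4:**
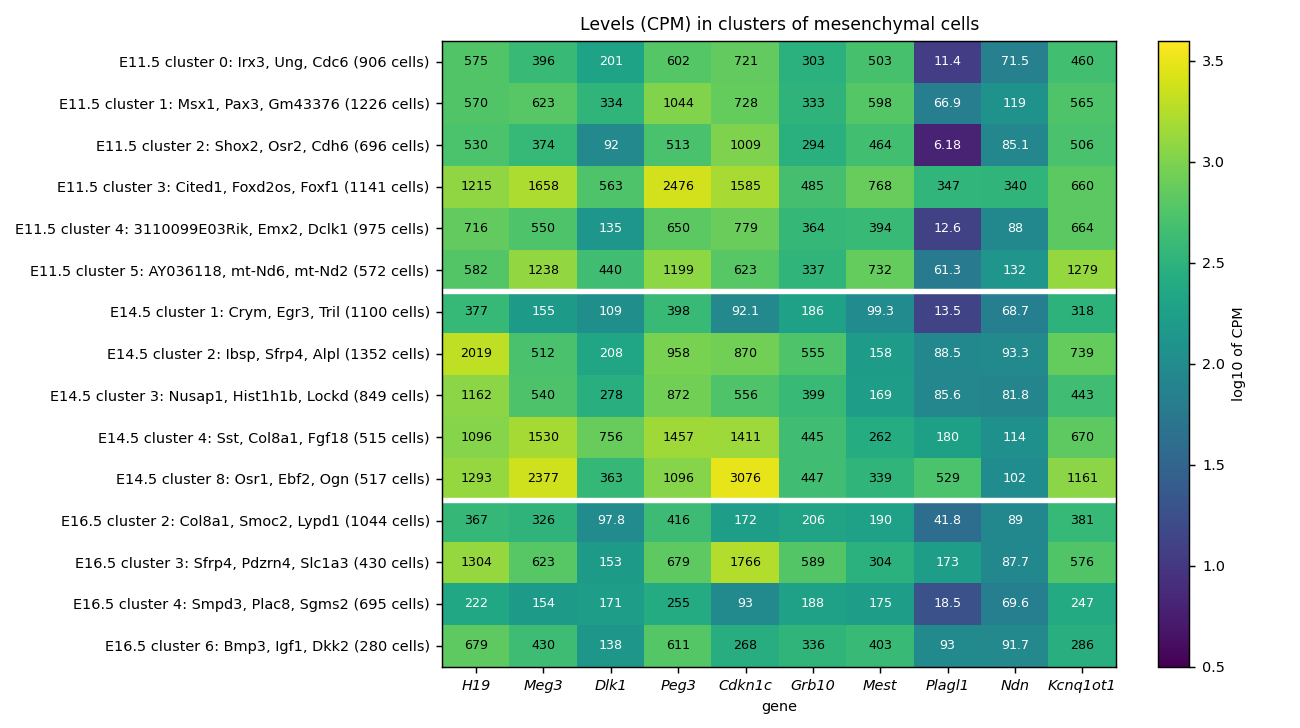
Levels (CPM, printed in each cell and colored on a log10 scale) of the 10 genes in the mesenchymal clusters of each stage, named by leading genes. The *Cited1* row of E11.5 holds the highest values for 9 genes, and the *Crym* row of E14.5 the lowest for all 10. Shares over all genes were not computed for these counts.

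*Cdkn1c* encodes a cell cycle inhibitor, so mesenchymal cells were compared by the same list of cell cycle genes. Each cell was thinned to 2000 UMIs and classed as not cycling with 0 UMIs of the list and as cycling with 2 or more, and cells with 1 UMI, 302, 545 and 381 from E11.5 to E16.5, were left out. The classes cut a range and are not cell types. Cells not cycling numbered 204, 1276 and 1280 over the same stages, which is 3.97%, 33.2% and 51.9% of mesenchymal cells of sufficient depth. At E11.5, 1 member was past 2-fold higher in cells not cycling, *Plagl1* at 2.14-fold, where 9.91% of 8071 genes were past 2-fold and 3.49% higher. At E14.5, 4 were, *Cdkn1c* (3.23-fold, interval 3.05 to 3.42), *Plagl1* (3.10-fold), *Meg3* (2.56-fold) and *H19* (2.04-fold), where 11.1% of 8014 genes were past 2-fold and 5.02% higher. At E16.5, 3 were, *Cdkn1c* (2.82-fold, 2.50 to 3.19), *Plagl1* (2.43-fold) and *Meg3* (2.08-fold), where 8.66% of 7498 genes were past 2-fold and 3.6% higher. All 10 members had a ratio above 1 at E11.5 and E14.5, whatever its size. The share of all genes with a ratio above 1 was not computed. The median log2 ratios of the members were 0.42 and 0.83, against -0.002 and 0.04 over all genes. The E11.5 ratios rest on 204 cells not cycling, and counting intervals of single members are not given for them here, so some may lie within counting error of 1. At E16.5, *Dlk1* was lower in cells not cycling (0.827, 0.700 to 0.977), and *Mest* did not differ beyond counting error (0.9799, 0.862 to 1.12). *Malat1* was 1.69-fold higher in cells not cycling at E14.5 and 1.85-fold at E16.5, and had a ratio of 0.981 at E11.5, and its part in these ratios was not tested. In the epithelium, 7 members passed the filter on counts. At E14.5, *Cdkn1c* was past 2-fold higher in cells not cycling (2.16-fold, 1.67 to 2.77) and *Mest* lower (2.52-fold), where 10.4% of 3081 genes were past 2-fold, 1.75% higher and 8.67% lower. Each epithelial class held at least 50 cells, but their numbers and an interval for *Mest* are not given here. By E16.5, 0 of 7 were, where 7.23% of 5702 genes were past 2-fold.

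**Figure D5:**
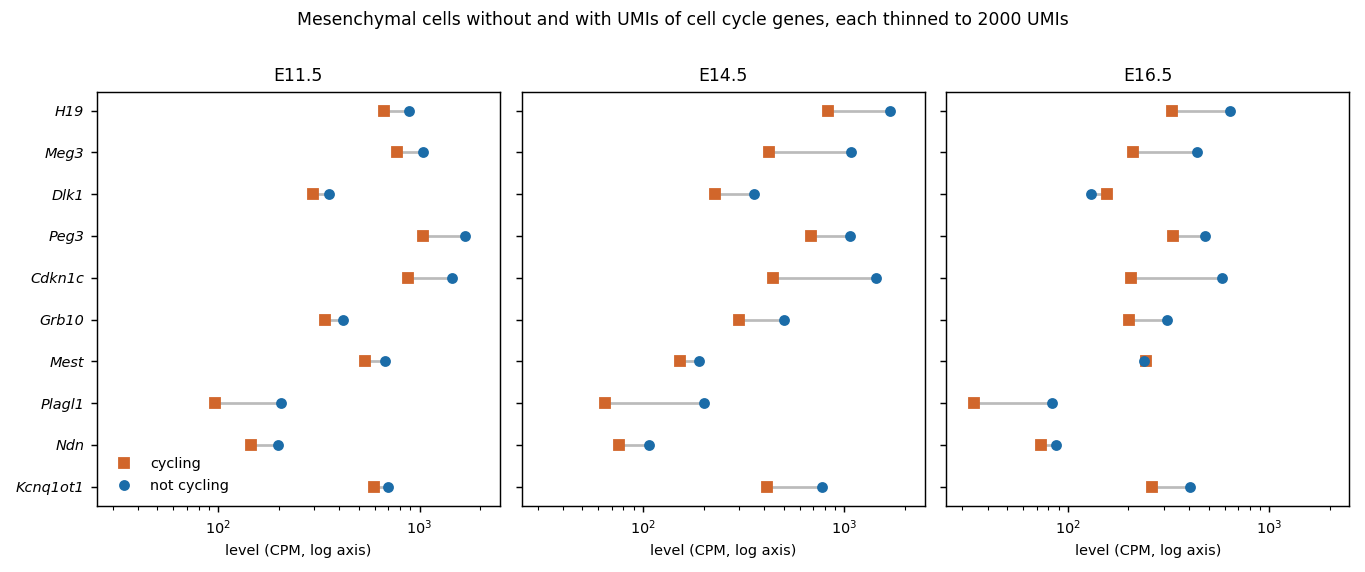
Levels (CPM, log axis) of the 10 genes in mesenchymal cells not cycling (blue circles) and cycling (orange squares) at each stage, with a line joining the pair of values. The pair lies farthest apart for *Cdkn1c* and *Plagl1* at E14.5, and for *Dlk1* the order is the opposite at E16.5.

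Since the share of cells not cycling grew from stage to stage, stages were also compared within each class, a comparison added after the data were seen. From E14.5 to E16.5, 4 members were past 2-fold lower among cycling cells (*H19*, *Cdkn1c*, *Peg3* and *Meg3*), where 6.8% of 7818 genes were past 2-fold and 2.24% lower. Among cells not cycling 6 were (the same 4, *Dlk1* and *Plagl1*), where 6.17% of 7925 genes were past 2-fold and 1.73% lower. The median log2 ratio of the members was -0.79 in cycling cells and -1.22 in cells not cycling. The part of the share of cells not cycling in the lower levels at E16.5 was not tested. From E11.5 to E14.5, *Cdkn1c* was 1.98-fold lower in cycling cells (880 to 444 CPM) and at like levels in cells not cycling (1449 and 1434 CPM). *Plagl1* was 1.07-fold higher at E14.5 in the whole mesenchyme but 1.48-fold lower in cycling cells (96.0 to 65.0 CPM) and at 206 and 202 CPM in cells not cycling. *Mest* was 3.51-fold lower in cycling cells and 3.53-fold lower in cells not cycling, against 3.49-fold in the whole mesenchyme. It was the member past 2-fold in each class, where 15.3% of 8169 genes were past 2-fold and 8.54% lower among cycling cells, and 20.2% of 6008 and 8.19% among cells not cycling. The classes and the clusters overlap.

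Across the 11 groups of stage and lineage with at least 50 cells, which share 3 matrices, the genes most like each member were ranked by Pearson's r of log2(CPM + 10) among 5021 genes, as a description. For *Meg3*, *Peg3* and *H19* the gene most like the member was a neighbor in the same imprinted domain. Other neighbors were less alike, with r = 0.68 for *Meg3* with *Dlk1* and 0.52 for *Cdkn1c* with *Kcnq1ot1*. *Rian*, a noncoding RNA downstream of *Meg3*, was most like *Meg3* (r = 0.99), *Usp29* most like *Peg3* (0.95) and *Igf2* most like *H19* (0.92). *Igf2* was also most like *Grb10* (0.96), which lies on another chromosome. *Dlk1* was most like *Prrx1* (0.99), one of the mesenchymal markers, and *Mest* was most like *Plagl1* (0.96). *Plagl1* itself was most like *Ptprg* (0.98), *Cdkn1c* like *Arglu1* (0.96), *Ndn* like *Sulf2* (0.94) and *Kcnq1ot1* like *Cep295* (0.95). Within mesenchymal cells at equal depth, the median r over 45 pairs of members was 0.14, 0.16 and 0.10 from E11.5 to E16.5, and the highest at these stages were *Meg3* with *Peg3* (0.41), *Meg3* with *Cdkn1c* (0.49) and *H19* with *Cdkn1c* (0.37).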

How the data were processed

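Single cells of 3 stages were profiled with 10x Genomics 3' libraries. The authors processed the reads with Cell Ranger 4.0.0 on mm10 and deposited, per stage, raw UMI counts per gene and barcode, not normalized, in 1 matrix. How the labelled libraries were combined into it is not given in the sources used here. The counts were filtered as in the study's methods (at least 700 genes, at most 20% mitochondrial counts), leaving cells of 864 to 123785 UMIs. Levels are CPM of the summed counts of a group, with exact Poisson intervals. Ratios have exact conditional binomial intervals, and shares Clopper-Pearson intervals. UMIs remove most PCR copies, and intervals cover counting error only. Genes entered counts past 2-fold with at least 50 counts in both groups together and 10 CPM in one, and a group at 0 was set to 3 counts. Clusters used 2000 variable genes, 20 principal components and Leiden resolution 0.4 (scanpy 1.11.5, igraph 0.11.9). A cluster was left unnamed where 2 or more of its 10 leading genes were markers of another lineage, a rule set after its output was seen, and this left an E14.5 cluster led by globin genes out of the cluster levels. The neuronal marker *Stmn2* was among the leading genes of the *Ibsp* cluster. Scrublet called 0 doublets in all stages, and so did not work here. In its place the 5% of cells with the highest scores were left out as an alternative. Stages shared 9 to 11 barcodes. Gene positions are from GENCODE vM21. The ratio and its interval were tested on simulated data. Versions were 3.11.15 of python, 2.4.6 of numpy and 1.17.1 of scipy.

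The members and lists were chosen with earlier results of these data known. The genes named are the 10 members, up to 4 of 30 listed imprinted genes with the largest change in a comparison, the gene most like each member (the 2 most like were ranked), lineage markers, and *Malat1* and the mitochondrial share beside *Kcnq1ot1*. *Igf2*, the cell cycle genes and the genes leading clusters are named as well.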

Additional observations from a re-analysis of the deposited data

Results flagged for a closer look

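*Plagl1* had a ratio of E14.5 over E11.5 of 1.07 in the mesenchyme and 0.709 in the endothelium, on opposite sides of 1, and the difference was not tested. The mesenchymal log2 ratio of 0.10 became -0.56 in cycling cells and -0.03 in cells not cycling, each thinned to 2000 UMIs. Each lineage is 1 sample per stage.

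Barcodes left out by the filter on genes and mitochondrial counts also held UMIs of the members. They were 8582 UMIs in 2135 barcodes at E11.5, 4094 in 2101 at E14.5 and 787 in 1208 at E16.5, each over the limit of 3 UMIs.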

How the results depend on the processing

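No paired analysis was possible because the barcodes of a stage carry no library. For the same reason no library could be left out in turn. Epithelium at E11.5 had 9 cells, so its comparisons with E14.5 and with mesenchyme were not made, and the E11.5 endothelium had too few cells under the stricter filter of 1000 genes and 10% mitochondrial counts. Of 138 alternative values for the numbers of members past 2-fold, 134 were within 1.5 times the value given. The exceptions all concern mesenchyme from E14.5 to E16.5, with 1 member: 3 with median-of-ratios size factors, 4 with the mean of per-cell CPM, and, added after the data were seen, 4 among cycling cells and 6 among cells not cycling. The cause was not tested. Of 1380 alternative log2 ratios of single members, 1143 lay within the counting interval of the value given and 237 did not. The median absolute shift over all 1380 was 0.026. Of the 1380, 0 reversed a ratio past 2-fold, and 19 changed the sign of a smaller one, in 8 ratios with sizes of at most 0.39. The largest shift was that of *Dlk1* over endothelium at E16.5, from 7.07 to 3.13 with the lineage of a cell's cluster, where the endothelium held 1 UMI. Under that setting *Dlk1* over endothelium also went from 5.70 to 2.72 at E11.5 and from 5.81 to 3.43 at E14.5, *Meg3* over endothelium from 2.70 to 1.88, from 3.61 to 2.46 and from 3.45 to 2.16 over the 3 stages, and *Peg3* over endothelium from 3.44 to 2.401 at E11.5 and from 3.54 to 2.82 at E14.5. Leaving out the clusters of high or low mitochondrial share, also added after the data were seen, changed no number of members past 2-fold between groups.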
